A study of Homo sapiens with 6 samples.

Results

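RT-112 is a human bladder cancer cell line. The comparison described here sets RT-112 cells transfected with the first of a pair of small interfering RNAs (siRNAs) against PPP2R2A, named siPPP2R2A_1 in the labels and siRNA 1 below, against RT-112 cells transfected with a scramble siRNA. Its members are the 4 arrays of those groups, 2 of siRNA 1 and 2 of scramble, out of 6 arrays in the series. The genes described are the 12735 tested of 19775 that had a probe set carrying exactly 1 gene symbol. The remaining pair of arrays, of cells given siPPP2R2A_2 (siRNA 2), enters only the estimate of spread and the direct contrast between the siRNAs. All groups, scramble included, received 50 nM siRNA with Lipofectamine RNAiMAX when plated at 50% confluence. The same amount was given again 24 h later, and RNA was taken after a further 24 h, so the silencing is transient. One title of an siRNA 1 array spells the gene differently, and the array was assigned by its siRNA number.

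PPP2R2A encodes B55alpha, a regulatory subunit of protein phosphatase 2A (PP2A). PP2A holoenzymes join a catalytic subunit and a scaffold subunit to 1 of several kinds of regulatory subunit, which directs the enzyme to its substrates. B55-type holoenzymes are known for dephosphorylating substrates of cyclin-dependent kinases at the end of mitosis. An siRNA lowers the transcript it is designed for, can lower other transcripts that match its seed by partial pairing, and as a double-stranded RNA can be recognised by innate immune sensors. The sequence of siRNA 1 was not used here.

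The design text calls the arrays technical duplicates, and the groups come from 1 cell line, so each p-value measures only the spread between these arrays. The 4 arrays had median signals from 70.5 to 76.2, the correlation between duplicates (log2 signals of tested genes) was 0.979 to 0.980, and that between scramble and siRNA 1 arrays 0.973 to 0.978. RNA integrity and labelling are reflected in how far 3' signal exceeds 5' signal, and for the ACTB control probe sets that ratio was 5.43 and 5.94 with scramble and 6.52 and 7.82 with siRNA 1. It moved with the group, and its part in the results below was not tested. The ratio for GAPDH was 1.00 and 1.00 with scramble and 1.00 and 1.02 with siRNA 1. All 10 epithelial markers, EPCAM and keratins among them, read above the array median on every array, with summed signals of 131874 to 137828 in scramble and 134442 to 139210 in siRNA 1. Of the urothelial markers GATA3, FOXA1, PPARG, UPK1B, UPK2 and UPK3B were above the filter, and UPK1A and UPK3A were below it. Of 10 fibroblast markers 2 (COL1A1 and LUM), of 8 endothelial markers 2 (PECAM1 and CDH5) and of 8 leukocyte markers 1 (LAPTM5) read above the median on every array. The fibroblast markers summed to 6105 to 6375 with scramble and 6782 to 7666 with siRNA 1, mostly LUM, and the part of these sums in the results was not tested. COL1A2, COL3A1, VWF and PTPRC were among the markers below the filter. The fibroblast markers DCN and THY1 and the leukocyte marker CD3E passed the filter without reading above the median on every array. For DCN and THY1 the groups overlapped. For CD3E both siRNA 1 arrays read above both scramble arrays, and it was not called.

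The targeted transcript fell. On its brightest probe set PPP2R2A read 1381 and 1589 with scramble and 336 and 397 with siRNA 1, which left 24.7% of the scramble mean (log2 change -2.02, SE 0.13, limma adjusted p = 0.0403). A dimmer probe set read 446 and 434 against 72.4 and 109, a log2 difference of -2.30. On both, the groups did not overlap. On the dimmest of the 3 they did, with 287 and 281 against 334 and 221 (log2 difference -0.064). The call did not hold without any 1 array (log2 change from -2.14 to -1.90, adjusted p from 0.139 to 0.183), nor with the mean of its probe sets (log2 -1.42, adjusted p = 0.124).

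**Figure D1:**
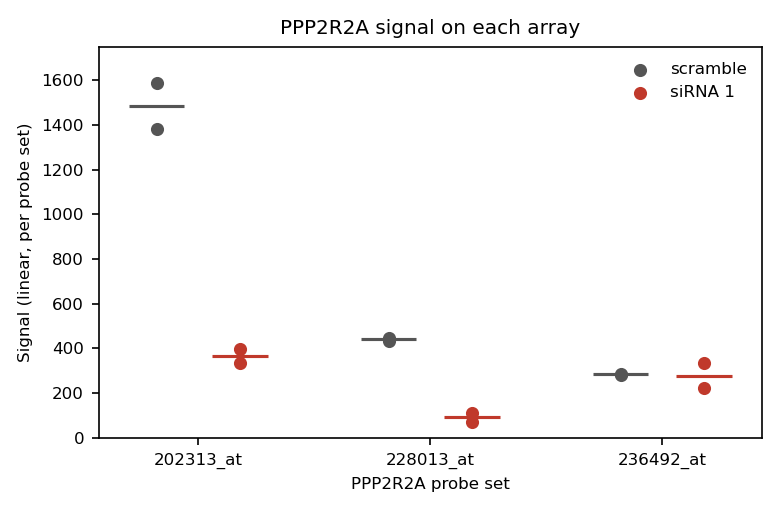
Signal (linear, y axis) of each array on the 3 PPP2R2A probe sets above the filter (x axis), with scramble in grey, siRNA 1 in red and a bar at the mean of 2 arrays. On the 2 brighter probe sets both siRNA 1 arrays lie below both scramble arrays, and on the dimmest the groups overlap.

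By the main limma rule no other PP2A subunit was called among the 19 tested (1 higher at p under 0.05 without adjustment). PPP2R1B, the beta scaffold subunit, read 834 and 843 with scramble and 1623 and 1336 with siRNA 1 (log2 difference 0.81, SE 0.12, adjusted p = 0.0807), and both siRNA 1 arrays lay above both scramble arrays. When the prior variance followed intensity limma called it higher (adjusted p = 0.00183). It read 2034 and 1960.3 with siRNA 2. The other PPP2R1B probe sets above the filter stood at 0.42, 0.44 and 0.23 with siRNA 1 against scramble. The alpha scaffold PPP2R1A read 504 and 714 with scramble and 785 and 763 with siRNA 1 (log2 difference 0.37, SE 0.18, adjusted p = 0.418). The catalytic subunits PPP2CA and PPP2CB stood at log2 differences of 0.093 (SE 0.10) and -0.063 (SE 0.083), and the B55 relatives PPP2R2B, PPP2R2C and PPP2R2D at -0.071, -0.11 and 0.17. On their brightest probe sets the B56-type and striatin-type subunits ranged from -0.25 (STRN) to 0.19 (STRN4). Some other probe sets above the filter lay outside these values. Those of PPP2R5E (0.12 on its brightest) stood at 0.94, 0.40, 0.17 and 0.16, and those of STRN from -0.19 to 0.56. PPP2R5D had another at -0.35. The other probe sets of PPP2CA stood the other way, at -0.53 and -0.44, as did that of PPP2R2D, at -0.13. Of 14 PP2A regulators 1 was called: BOD1, which inhibits B56-containing PP2A at kinetochores, rose from 1953 and 2142 with scramble to 4423 and 4299 with siRNA 1 (log2 change 1.09, SE 0.086). The share called higher was 0.212% of all genes. CIP2A, an inhibitor of PP2A, stood at -0.38 (adjusted p = 0.212), while ENSA and ARPP19, the phosphorylation-dependent inhibitors of B55, stood at -0.093 and 0.041. Another CIP2A probe set above the filter stood at -0.63. Those of ENSA ranged from -0.55 to 0.12, and those of ARPP19 stood at 0.025 and -0.054.

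Across all genes the change was narrow. The log2 difference had a median of 0.01, and 5% of genes lay below -0.51 and 5% above 0.60. The call rule asked for a change of 1.5-fold or more with a limma adjusted p below 0.05. It gave 50 genes (0.393% of 12735), 27 higher (0.212%) and 23 lower (0.181%), with adjusted p-values from 0.0368 to 0.0498. Both siRNA 1 arrays lay on the called side of both scramble arrays for each of the 50, against 26.7% of all tested genes above and 22.7% below. The call rule favours such a separation, so it is no further support for the calls. A further 178 genes stood at least 2-fold higher and 155 at least 2-fold lower without being called. The calls rested on the spread shared over all 6 arrays: 0 genes were called with the 4 arrays alone (1925 at an unadjusted p under 0.05, against 2063 with all 6), and 0 when any 1 of the 6 arrays was left out (1461 to 1925 at an unadjusted p under 0.05). With a prior variance that follows intensity limma called 299 genes, 46 of the 50 among them, and with arrays centred on their medians it called 11, all of them among the 50.

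**Figure D2:**
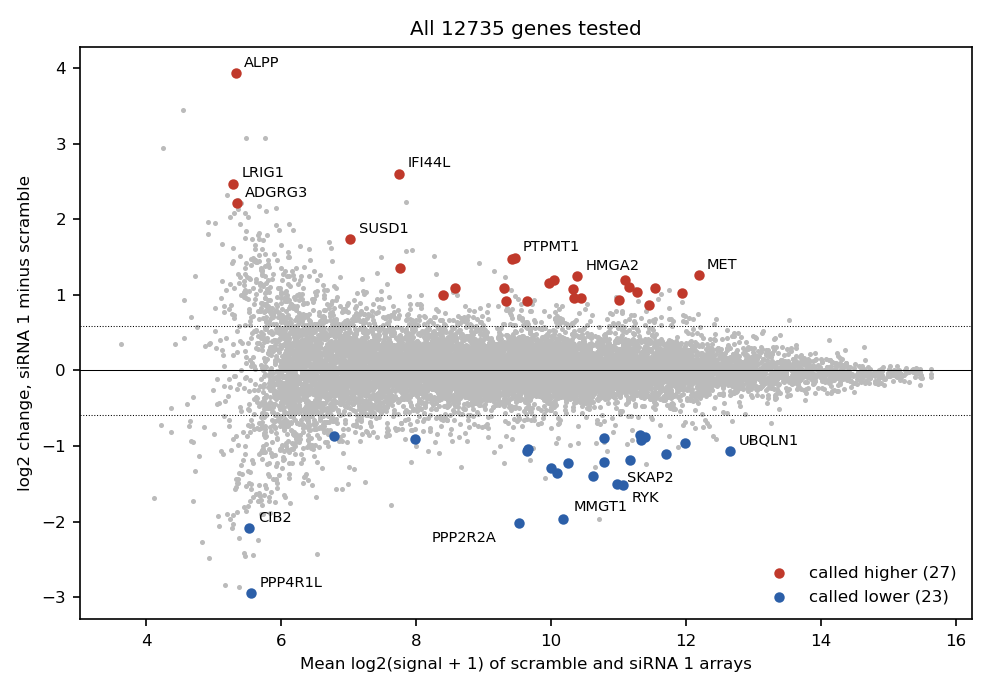
Log2 change with siRNA 1 against scramble (y axis) over the mean log2(signal + 1) of the 4 arrays (x axis) for the 12735 genes tested, with dotted lines at 1.5-fold. Called genes are red (27 higher) and blue (23 lower), and the largest uncalled differences lie at the dim end.

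Of the 23 genes called lower, all but 2 kept a mean signal above the array medians with siRNA 1. MMGT1, a subunit of the endoplasmic reticulum membrane protein complex (EMC) that inserts proteins into membranes, fell from 2344 and 2255 with scramble to 599 and 577 with siRNA 1 (log2 change -1.97, SE 0.095). The duplicates of each group were close together, and its call held in 6 of 10 other settings run with every array. RYK, a Wnt co-receptor with an inactive kinase domain, fell from 3923 and 3359.9 with scramble to 1239.8 and 1291 with siRNA 1 (log2 change -1.52, SE 0.12), and SKAP2, an adaptor of Src-family kinases, from 3349 and 3425 with scramble to 1212 and 1177 with siRNA 1 (log2 change -1.50, SE 0.078). Further probe sets passed the filter for both, 2 for RYK and 3 for SKAP2, and all 5 stood lower, from -1.64 to -0.94. SUDS3, a subunit of the SIN3 histone deacetylase corepressor, fell from 2589.7 and 2502 with scramble to 965 and 973 with siRNA 1 (log2 change -1.39, SE 0.12).

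Genes of membrane traffic and transport were among them. PLEKHA3, which binds phosphatidylinositol 4-phosphate at the Golgi, fell from 1693 and 1791 with scramble to 662 and 700.2 with siRNA 1 (log2 change -1.35, SE 0.10). RAB21, a GTPase of early endosomes, fell from 1893 and 1849 with scramble to 821 and 779 with siRNA 1 (log2 change -1.23, SE 0.078), and its other 2 probe sets above the filter stood at -1.23 and -1.27. One below the filter stood at 0.97. The zinc importer SLC39A10 fell from 1599.9 and 1589 with scramble to 657 and 645 with siRNA 1 (log2 change -1.29, SE 0.10). SLC26A2, a sulfate transporter, fell from 3302 and 3626 with scramble to 1504 and 1551 with siRNA 1 (log2 change -1.18, SE 0.087), with its other probe sets at -1.36 and -1.42. In all 4 the duplicates of each group lay close together and the groups did not overlap. RAB21 was the 1 call of 27 endosome and RAB genes tested, and MMGT1 the 1 call of 26 genes of the EMC, GET and translocon machinery. The share called lower was 0.181% of all genes. A single call describes the gene and not its list.

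Some called genes act in cell division or genome maintenance, although the lists of mitotic entry and of homologous recombination held 0 calls. CDC23, a subunit of the anaphase-promoting complex, fell from 2820.5 and 2576 with scramble to 1193 and 1134 with siRNA 1 (log2 change -1.21, SE 0.087), but a dimmer probe set of it stood at -0.026. NEDD1, which brings gamma-tubulin rings to spindles, fell by 0.85 on the log2 scale and both its other probe sets stood lower (-0.84 and -0.48). RMI2, part of the complex of the BLM helicase, fell by 0.90. SUMO3, a ubiquitin-like modifier, fell from 5913 and 5435 with scramble to 2864 and 2984 with siRNA 1 (log2 change -0.96, SE 0.085), with another probe set at -0.18.

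A pair of genes of inositol phosphate and vitamin B6 metabolism followed, with genes of protein turnover and glycosylation. INPP5A, an inositol polyphosphate 5-phosphatase, fell from 5071 and 4737 with scramble to 2213 and 2321 with siRNA 1 (log2 change -1.11, SE 0.084). PLPBP, which binds pyridoxal phosphate, fell from 1132 and 1192 with scramble to 533 and 594 with siRNA 1 (log2 change -1.04, SE 0.092), and its other probe sets above the filter stood at -1.40 and -1.15. Those below the filter stood at 1.06 and 0.11, and the mean of all stood at -0.49, not called. UBQLN1, a shuttle of ubiquitinated proteins to the proteasome, fell from 9111 and 9539 with scramble to 4697 and 4235 with siRNA 1 (log2 change -1.06, SE 0.090) on its brightest probe set. The other 2 UBQLN1 probe sets, both bright, stood at 0.055 and -0.16, so the fall of this gene was seen on 1 of 3 probe sets. SH3BGRL, a small adaptor-like protein, fell from 1147 and 1161 with scramble to 583 and 516 with siRNA 1 (log2 change -1.07, SE 0.093). The gamma-secretase subunit APH1A (-0.92), the O-glycosylation enzyme GALNT7 (-0.88), NCR3LG1, a ligand of the natural killer receptor NKp30 (-0.91), and the acetylcholinesterase gene ACHE (-0.87) fell by the log2 changes given.

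The largest falls by size belonged to dim transcripts. PPP4R1L, a relative of a regulatory subunit of protein phosphatase 4, fell from 157 and 107 with scramble to 15.7 and 16.2 with siRNA 1 (log2 change -2.95, SE 0.21). CIB2, a calcium and integrin binding protein, fell from 106 and 84.4 with scramble to 20.4 and 22.4 with siRNA 1 (log2 change -2.09, SE 0.14). Both were below the array medians with siRNA 1, so the sizes rest on the background level, and with an intensity trend CIB2 was not called (adjusted p = 0.0532), nor was ACHE (0.137). Other probe sets, all below the filter, stood at -0.18 and 0.98 for CIB2 and at 0.75 and 0.89 for ACHE. Those of PPP4R1L stood from -2.92 to -0.021.

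**Figure D3:**
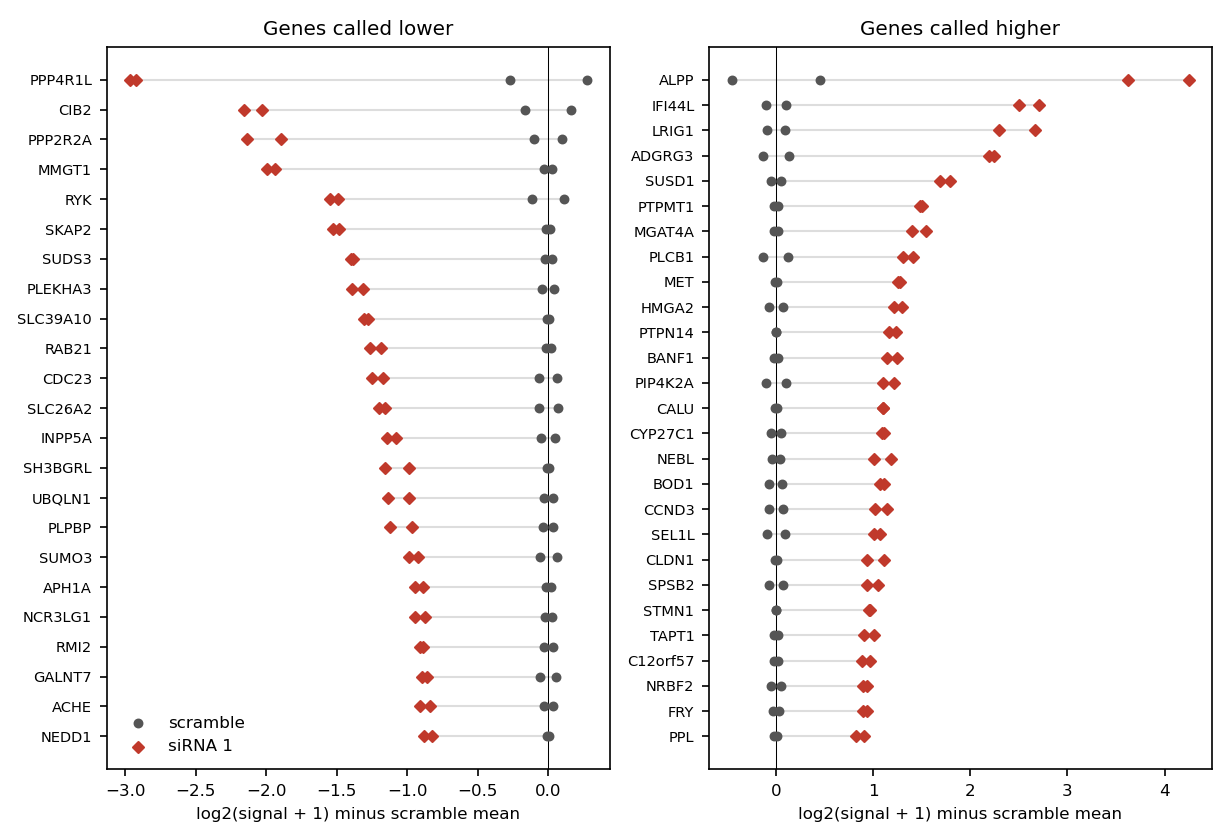
Log2(signal + 1) of each array minus the scramble mean of the gene (x axis) for the 23 genes called lower (left) and the 27 called higher (right), with scramble as grey circles and siRNA 1 as red diamonds. In each row the 2 siRNA 1 arrays lie apart from both scramble arrays, which the call rule favours.

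Of the 27 genes called higher, all but 4 had a mean signal above the array medians in scramble. MET, which encodes the receptor of hepatocyte growth factor, rose from 2985 and 3023 with scramble to 7152 and 7295 with siRNA 1 (log2 change 1.27, SE 0.086), and its other 2 probe sets above the filter, both dim, stood at 0.31 and 0.83. One below the filter stood at -0.20. The mean of its probe sets stood at 0.55, not called. CCND3, cyclin D3, rose by 1.08 on the log2 scale, from 923 and 836 to 1778 and 1941. Its other probe set, below the filter, stood at -1.32, and the mean of the pair turned to -0.12. It was the 1 call of 31 genes of the G1/S and replication list, in which CCND1 stood at -0.46 and CDK6 at -0.51. The share called higher was 0.212% of all genes. PTPN14, a phosphatase that binds YAP, rose from 695 and 694 with scramble to 1555 and 1636 with siRNA 1 (log2 change 1.20, SE 0.084). HMGA2, an architectural chromatin protein, rose from 912 and 822 with scramble to 2005 and 2124 with siRNA 1 (log2 change 1.25, SE 0.091). Its other 3 probe sets above the filter were dimmer and stood at -0.34, -0.011 and -0.78, so the rise was seen on 1 of 4. It was the 1 call of 12 HMG and epithelial-mesenchymal transition genes tested, among which SNAI2 stood at -0.37 and VIM, vimentin, at 0.23.

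Several risers act at membranes or in lipid signalling. PTPMT1, a mitochondrial phosphatase of cardiolipin synthesis, rose from 426 and 413 with scramble to 1173 and 1190.0 with siRNA 1 (log2 change 1.49, SE 0.12). MGAT4A, a Golgi enzyme that branches N-glycans, rose from 406 and 417 with scramble to 1092 and 1200.4 with siRNA 1 (log2 change 1.47, SE 0.086). PLCB1, a phospholipase C, rose from 148 and 124 with scramble to 362 and 335 with siRNA 1 (log2 change 1.36, SE 0.12), and PIP4K2A, a phosphoinositide kinase, from 628 and 722 with scramble to 1567 and 1445 with siRNA 1 (log2 change 1.16, SE 0.11). All 3 further probe sets above the filter for PTPMT1 and PIP4K2A stood higher, from 0.68 to 1.26. The tight junction gene CLDN1 rose by 1.02 on the log2 scale, from 2739 and 2764 to 5932 and 5275, and was the 1 call among 21 junction genes tested (0.212% of all genes). MARVELD2, which encodes tricellulin, stood at 0.64 (adjusted p = 0.0807).

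BANF1, which binds DNA during nuclear envelope assembly and is a known substrate of PP2A at mitotic exit, rose from 1417 and 1466 with scramble to 3189.5 and 3428 with siRNA 1 (log2 change 1.20, SE 0.085). It was the 1 call of 17 envelope genes tested (0.212% of all genes were called higher), among which LEMD2, a membrane partner, stood at 0.47 (adjusted p = 0.333) and its kinase VRK1 at -0.34 (adjusted p = 0.168). None of the 28 genes of the mitotic entry list was called by limma (1 was lower and 0 were higher at p under 0.05 without adjustment), and they ranged from -0.25 (NEK2) to 0.21 (BUB1). In the endoplasmic reticulum CALU, a calcium-binding protein, rose from 1549 and 1568 with scramble to 3346 and 3352 with siRNA 1 (log2 change 1.10, SE 0.082), with all 4 further probe sets higher (0.61 to 1.17). CYP27C1, a retinoid desaturase, rose from 413 and 446 with scramble to 914 and 926 with siRNA 1 (log2 change 1.10, SE 0.088). The other risers were NEBL, nebulette (1.10), SPSB2, a ubiquitin ligase adaptor (1.00), STMN1, stathmin (0.96), TAPT1 (0.96), C12orf57 (0.93), NRBF2, an autophagy gene (0.92), FRY (0.91) and the desmosomal plakin PPL (0.87). The mean of the probe sets of STMN1 stood at 0.19, not called.

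Risers that started from a dim scramble signal had the largest ratios. ALPP, placental alkaline phosphatase, rose from 13.0 and 6.48 with scramble to 125 and 194 with siRNA 1 (log2 change 3.94, SE 0.37). LRIG1, an inhibitor of receptor tyrosine kinases, rose from 14.5 and 16.7 with scramble to 104 and 79.9 with siRNA 1 (log2 change 2.48, SE 0.15), ADGRG3, an adhesion G protein-coupled receptor, from 16.2 and 19.7 with scramble to 88.4 and 84.8 with siRNA 1 (log2 change 2.22, SE 0.13), and SUSD1 from 72.9 and 67.8 with scramble to 246 and 228 with siRNA 1 (log2 change 1.74, SE 0.087). In scramble the mean of each of these 4 was below the array medians (1 SUSD1 array was just above its own), so their fold rests on the background level, and LRIG1 and ADGRG3 were not called with an intensity trend (adjusted p = 0.0778 and 0.119). On other probe sets, all below the filter, LRIG1 stood at -0.28, 0.26 and -0.29 and ADGRG3 at -0.86.

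Other probe sets served as a check on the brightest. For 28 of the 50 genes the filter left further probe sets, 54 altogether. In 50 of the 54 the sign was that of the call, and 35 did so with at least 0.5 of its log2 size. The 4 exceptions were the 3 of HMGA2 and 1 of UBQLN1. For the other 22 genes, MMGT1, BANF1, CCND3, IFI44L and SLC39A10 among them, no other single-symbol probe set passed the filter. These probe sets read the same RNA extracts, so they are not further replicates.

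The direct contrast of siRNA 1 with siRNA 2 asks which changes differ between siRNAs designed against the same gene. It shares the siRNA 1 arrays with the comparison above, so a deviation of those arrays enters both. Of the 23 genes called lower, 10 were also called lower with siRNA 1 than with siRNA 2 (16 of all genes tested, 0.126%), and of the 27 called higher limma called 0 either way (10 higher and 2 lower at p under 0.05 without adjustment). MMGT1 read 2272 and 2556 with siRNA 2 against 599 and 577 with siRNA 1 (log2 difference -2.03, SE 0.095, limma adjusted p = 0.0418). CDC23 read 2817 and 2810.3 with siRNA 2 (log2 difference -1.27, adjusted p = 0.0467), SLC26A2 3278 and 3356 (-1.12, adjusted p = 0.0467), APH1A 3978 and 4090.2 (-1.11) and NEDD1 4035 and 3901 (-1.07). Those siRNA 2 signals lay near or above the scramble signals, which were 2820.5 and 2576 for CDC23 and 3438 and 3401 for NEDD1. CIB2, RAB21, SKAP2, PLPBP and SUMO3 completed the 10. With an intensity trend 18 of the 23 were called lower than with siRNA 2 (background 1.22%), and of the 27 risers 2, FRY (0.60) and HMGA2 (0.86), were called higher (background 1.63%).

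PPP2R2A itself differed between the siRNAs by -0.51 (SE 0.13, adjusted p = 0.158), not called. Among risers MET read 7604 and 6921 with siRNA 2 (log2 difference -0.0063, SE 0.086), BANF1 3412 and 3238 (-0.0075, SE 0.085) and IFI44L 578 and 539 (-0.071, SE 0.12). For each of these 3 the siRNA 2 arrays lay close to the siRNA 1 arrays. For ADGRG3 it was 1.06 (SE 0.13, adjusted p = 0.0655). A difference that missed the threshold does not show that the siRNAs act alike. Each siRNA was compared with the same scramble arrays, and a deviation common to those arrays cannot be told apart from a change shared by both siRNAs. The contrast called 0 genes after centring on medians and 0 when any 1 of the 6 arrays was left out.

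**Figure D4:**
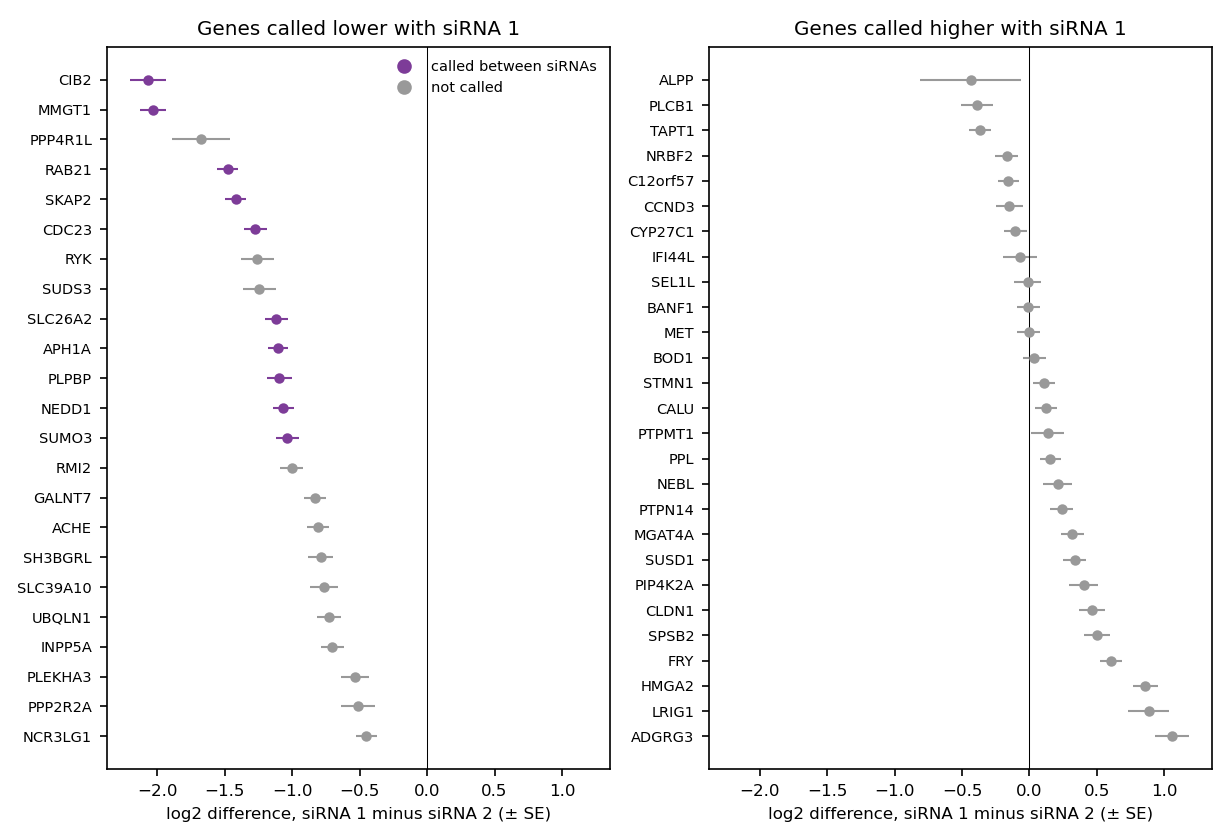
Log2 difference between siRNA 1 and siRNA 2 (x axis, bars are ± SE from the limma fit) for the genes called lower (left) and higher (right) with siRNA 1 against scramble. Purple marks the 10 genes also called between the siRNAs, all of them on the left, and the right panel spreads to both sides of 0.

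Interferon response genes stood higher as a group. Of 50 members tested 47 lay above 0, with a median log2 difference of 0.40, against 6646 of 12735 (52.2%) and a median of 0.01 over all genes. Both siRNA 1 arrays lay above both scramble arrays for 42 of the 50 (84%), against 26.7% of all genes, and 17 stood at least 1.5-fold higher (34%, against 5.15%, and 0 at least 1.5-fold lower, against 4.06%). By limma 1 member was called, IFI44L (background 0.212%), with 31 higher and 0 lower at an unadjusted p under 0.05 (9.55% and 6.65% of all genes) and 11 higher and 0 lower with an intensity trend (1.37% and 0.974%). IFI44L, an interferon-induced gene of unsettled function, rose from 80.4 and 92.9 with scramble to 572 and 493 with siRNA 1 (log2 change 2.61, SE 0.12). The median lay between 0.35 and 0.50 when any 1 array was left out.

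The members differed widely in size. XAF1, a pro-apoptotic gene, read 102 and 109 with scramble and 365 and 248 with siRNA 1 (log2 difference 1.51, SE 0.20, adjusted p = 0.0800). CXCL10, a chemokine that attracts T cells, read 267 and 331 with scramble and 714 and 889.8 with siRNA 1 (log2 difference 1.42, SE 0.16, adjusted p = 0.0633). The membrane protein IFITM1, which blocks virus entry, read 265 and 225 with scramble and 419.9 and 583 with siRNA 1 (log2 difference 1.02, SE 0.19, adjusted p = 0.121). In these 3 the arrays of each group did not overlap. IFI27 stood at 0.95, BST2 (tetherin) at 0.92, MX1, an antiviral GTPase, at 0.79 and RSAD2 (viperin) at 0.79. Among bright members, IFIT3 read 8651 and 9540.1 with scramble and 13326 and 11982 with siRNA 1 (log2 difference 0.48, SE 0.10, adjusted p = 0.147) and ISG15, a ubiquitin-like modifier, 4236 and 4693 with scramble and 5138 and 4694 with siRNA 1 (log2 difference 0.14, SE 0.10, adjusted p = 0.564). GBP1 (-0.22), SAMD9 (-0.17) and EPSTI1 (-0.097) were the 3 below 0. Against siRNA 2 directly, 39 of the 50 lay above 0 (median 0.21, against -0.0073 over all genes), 0 were called by limma (19 higher and 3 lower at p under 0.05 without adjustment), and 7 were called higher with an intensity trend (1.63% of all genes). CXCL10 read 243 and 244 with siRNA 2 (log2 difference from siRNA 1 1.71, adjusted p = 0.0575).

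Promoters of this list were read because its members stood higher together, and 3 are shown to let the shared element be seen. The RefSeq promoter table of GRCh38.p14 (250 bases before to 50 after the start site) held 43 of the 50 members. The core of the interferon-stimulated response element, taken as GAAA, any 2 bases and GAAA again on either strand, was found in 26 of the 43 (60.5%), against 3.65% of all 27305 promoters in the table. The list was made of known interferon response genes, so this share describes the list. It is no test of the changes on these arrays. Capitals mark each match. IFI44L lies at chr1:78620198-78620497, plus strand, IFITM1 at chr11:313790-314089, plus strand and CXCL10 at chr4:76023448-76023747, minus strand.
IFI44L: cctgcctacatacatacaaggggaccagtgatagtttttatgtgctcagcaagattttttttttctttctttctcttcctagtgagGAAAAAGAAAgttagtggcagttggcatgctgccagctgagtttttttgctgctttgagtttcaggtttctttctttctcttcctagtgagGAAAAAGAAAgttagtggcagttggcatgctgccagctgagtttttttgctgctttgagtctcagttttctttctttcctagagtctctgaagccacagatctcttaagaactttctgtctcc
IFITM1: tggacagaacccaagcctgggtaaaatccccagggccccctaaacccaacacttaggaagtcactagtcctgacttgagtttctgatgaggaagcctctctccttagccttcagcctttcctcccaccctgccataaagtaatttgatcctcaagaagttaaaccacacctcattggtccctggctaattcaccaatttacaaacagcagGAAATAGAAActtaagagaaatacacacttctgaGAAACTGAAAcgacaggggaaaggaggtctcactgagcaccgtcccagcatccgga
CXCL10: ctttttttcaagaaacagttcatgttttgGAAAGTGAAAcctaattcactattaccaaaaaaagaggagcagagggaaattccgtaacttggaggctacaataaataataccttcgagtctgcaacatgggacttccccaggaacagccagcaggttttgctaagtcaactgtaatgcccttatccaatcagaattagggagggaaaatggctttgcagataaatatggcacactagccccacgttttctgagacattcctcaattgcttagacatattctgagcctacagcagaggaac
IFI44L held 2 matches, at -164 and -73 from the start site, and IFITM1 2, at -40 and -6. The CXCL10 match began at -221. A match describes letters and is not evidence of binding, and the 3 members below 0 (GBP1, SAMD9 and EPSTI1) each held one too.

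The sensors of double-stranded RNA stood slightly higher. Above 0 lay 15 of 16 members tested, against 52.2% of all genes, with a median log2 difference of 0.12. In 12 (75%) both siRNA 1 arrays lay above both scramble arrays, against 26.7% of all genes. IFIH1, which encodes the sensor MDA5, read 649 and 593 with scramble and 929.8 and 953 with siRNA 1 (log2 difference 0.60, SE 0.085, adjusted p = 0.0807). RIGI, the sensor of 5'-triphosphate RNA, stood at 0.34 (adjusted p = 0.171). EIF2AK2, the kinase PKR, stood at 0.24. No member was called by limma (5 higher and 0 lower at an unadjusted p under 0.05, against 9.55% and 6.65% of all genes). Genes of MHC class I presentation had 12 of 16 above 0 and a median of 0.21. ERAP2, a peptide-trimming protease, stood at 0.56 and the immunoproteasome subunit PSMB9 at 0.42. In this list 0 were called (7 higher and 0 lower at an unadjusted p under 0.05, against 9.55% and 6.65% of all genes). Of these 16 genes 3 are also in the interferon list, and of the 16 sensing genes 6 are.

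The chemokine genes CCL5, CCL20 and CCL22, picked for the size of their differences, were not called. CCL5, a chemokine for T cells, read 410.3 and 315 with scramble and 932 and 859 with siRNA 1 (log2 difference 1.31, SE 0.20, adjusted p = 0.0829), and its siRNA 2 signals were 244 and 320.5. CCL20, whose scramble signals were below the array medians, read 173 and 142 with siRNA 1 (log2 difference 3.08, SE 0.84, adjusted p = 0.210). CCL22 read 169 and 65.5 with scramble and 471 and 527 with siRNA 1 (log2 difference 2.23, SE 1.33, adjusted p = 0.488). CCL5 and CCL20 did not overlap between groups, and neither did CCL22, whose scramble arrays differed more than 2-fold. The siRNA 2 arrays of CCL22 lay further apart, at 12.1 and 189, and they also enter its SE. Of the NF-kappaB targets 12 of 17 members tested lay above 0, with a median log2 difference of 0.13. CXCL8 stood at 0.59, RELB at 0.42 and NFKBIA at 0.35. Limma called 0 of the list (5 higher and 0 lower at an unadjusted p under 0.05, against 9.55% and 6.65% of all genes).

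Genes of the unfolded protein response, which expands folding and degradation capacity of the endoplasmic reticulum, also leaned higher. Above 0 lay 22 of 31 members tested, with a median log2 difference of 0.16. In 19 (61.3%) both siRNA 1 arrays lay above both scramble arrays, against 26.7% of all genes. In 7 (22.6%) they lay below both, about the share over all genes (22.7%). SEL1L, an adaptor of the HRD1 ubiquitin ligase that clears misfolded proteins, rose from 1840.3 and 1621 with scramble to 3642 and 3484 with siRNA 1 (log2 change 1.04, SE 0.099) and was the 1 call (0.212% of all genes were called higher). Its 3 other probe sets stood at 1.20, 0.52 and 0.057. PDIA4, a disulfide isomerase, read 2512 and 1972 with scramble and 4441 and 4552 with siRNA 1 (log2 difference 1.01, SE 0.14, adjusted p = 0.0807). CRELD2, a stress-induced folding factor, read 2962 and 3192 with scramble and 5411 and 4812 with siRNA 1 (log2 difference 0.73, SE 0.098, adjusted p = 0.0800). The co-chaperone DNAJC3 stood at 0.68 and HERPUD1 at 0.57. The central chaperone HSPA5 read 23727 and 22284 with scramble and 28264 and 28612 with siRNA 1 (log2 difference 0.31, SE 0.083, adjusted p = 0.208), with no overlap between groups. ERN1, the stress sensor IRE1, stood lowest at -0.48 (adjusted p = 0.107) and was called lower than with siRNA 2, where it read 585 and 570.0 against 280.3 and 270.0 with siRNA 1 (log2 difference -1.07, limma adjusted p = 0.0467). Without adjustment 12 members were higher and 3 lower at p under 0.05 (9.55% and 6.65% of all genes), and 4 were called higher with an intensity trend (1.37%).

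The promoter of CRELD2 is shown as an example of the element these genes are known for. The endoplasmic reticulum stress element, taken as CCAAT, any 9 bases and CCACG on either strand, was present in 7 of 28 promoters found for the list (25.0%), against 0.0806% of all promoters in the table. That share describes the list and is no test of the changes on these arrays. CRELD2 lies at chr22:49918384-49918683, plus strand (GRCh38.p14), and capitals mark its match, which is on the strand opposite to the gene.
CRELD2: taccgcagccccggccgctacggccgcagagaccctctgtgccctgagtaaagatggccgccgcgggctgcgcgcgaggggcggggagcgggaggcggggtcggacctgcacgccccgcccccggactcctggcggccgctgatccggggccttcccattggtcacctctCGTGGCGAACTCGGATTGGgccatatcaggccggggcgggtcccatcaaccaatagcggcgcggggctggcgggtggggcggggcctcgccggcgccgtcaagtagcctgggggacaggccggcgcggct
The promoters of HSPA5, HSP90B1, XBP1, CALR, CANX and ERO1B also held the element, and their log2 differences ran from 0.044 (CANX) to 0.71 (ERO1B).

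Targets of ATF4, the transcription factor of the amino acid response, had 26 of 33 members above 0 and a median of 0.23. DDIT3, which encodes CHOP, read 449 and 346 with scramble and 639 and 814 with siRNA 1 (log2 difference 0.87, SE 0.22, adjusted p = 0.195). SLC7A11, the cystine transporter, read 1393 and 1567 with scramble and 2594 and 2362 with siRNA 1 (log2 difference 0.74, SE 0.11, adjusted p = 0.0851). ASNS, asparagine synthetase, read 2756 and 2931 with scramble and 4434 and 4537 with siRNA 1 (log2 difference 0.66, SE 0.087, adjusted p = 0.0800), and TRIB3, a pseudokinase, 917 and 839 with scramble and 1327 and 1439 with siRNA 1 (log2 difference 0.66, SE 0.097, adjusted p = 0.0822). The groups did not overlap in these 4. By limma 0 were called over all genes (15 higher and 1 lower at p under 0.05 without adjustment, against 9.55% and 6.65% of all genes, and 7 higher with an intensity trend, against 1.37%). Against siRNA 2 the list lay the other way, with 7 of 33 above 0 and a median of -0.25, and 0 were called by limma with or without the trend (1 higher and 12 lower at p under 0.05 without adjustment). TTGCATCA, a form of the C/EBP-ATF response element, was in 2 of 28 promoters (7.14%), those of CHAC1 and AARS1, against 0.923% of all. That share too describes the list and not these arrays.

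Most squamous and contractile genes tested stood below 0, and the main limma rule called 0 of them. Of 23 basal and squamous genes tested 8 lay above 0, with a median of -0.18, and 12 (52.2%) had both siRNA 1 arrays below both scramble arrays, against 22.7% of all genes. SERPINB3, a squamous protease inhibitor, read 289 and 335 with scramble and 153 and 179 with siRNA 1 (log2 difference -0.91, SE 0.13, adjusted p = 0.0807). SPRR1B and SPRR3, proteins of the cornified envelope, stood at -0.67 and -0.67 on their brightest probe sets, and IVL, involucrin, at -0.51. The other SPRR3 probe set above the filter, a dimmer one, stood the other way at 1.13. Without adjustment 8 were lower at p under 0.05 and 1 was higher (6.65% and 9.55% of all genes), and with an intensity trend SERPINB3, SPRR1B and SPRR3 were called lower (0.974% of all genes). Against siRNA 2 directly 19 of 23 lay above 0 (median 0.27), with 0 called by limma (11 higher and 0 lower at p under 0.05 without adjustment). With an intensity trend 5 were called higher (1.63% of all genes).

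Actin and SRF targets had 7 of 24 above 0 and a median of -0.12. In 11 (45.8%) both siRNA 1 arrays lay below both scramble arrays, against 22.7% of all genes. TAGLN, transgelin, read 1159 and 1269 with scramble and 556 and 634 with siRNA 1 (log2 difference -1.03, SE 0.12, adjusted p = 0.0633). CCN1, a matricellular target of YAP and SRF, read 5761 and 5009 with scramble and 2571 and 2738 with siRNA 1 (log2 difference -1.02, SE 0.11, adjusted p = 0.0561). MYL9, a myosin light chain, stood at -1.43 (adjusted p = 0.353) and EGR1 at -0.76 (adjusted p = 0.191), while ACTA2 stood at 0.73. None was called by limma (6 were lower and 1 was higher at p under 0.05 without adjustment, against 6.65% and 9.55% of all genes). With an intensity trend TAGLN, CCN1 and EGR1 were called lower (0.974% of all genes). CALD1, caldesmon, stood at -0.35 against scramble and was called lower than with siRNA 2 (2038 and 2068 against 4664 and 4834, log2 difference -1.21, limma adjusted p = 0.0467). For actin itself, ACTB control probe sets gave a larger 3' to 5' ratio on the siRNA 1 arrays (6.52 and 7.82 against 5.43 and 5.94), whose part in these values was not tested.

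In the TGF-beta list ID3, an inhibitor of basic helix-loop-helix factors, read 2698 and 2583 with scramble and 1249 and 1264 with siRNA 1 (log2 difference -1.07, SE 0.12, adjusted p = 0.0592). Its relative ID1 stood at -0.56 and the matrix gene THBS1 at -0.58, whereas the receptors BMPR2 and ACVR1 stood at 0.63 and 0.54. For BMPR2 that is the brightest probe set, and of the other 4 above the filter 3 stood below 0 (-0.25 to -0.11) and 1 at 0.25. The list as a whole had 9 of 26 above 0 and a median of -0.042. Luminal urothelial genes had 11 of 26 above 0 and a median of -0.059, with UPK1B, a uroplakin, at -0.69 (adjusted p = 0.0657) and the transcription factor GRHL3 at 0.87 (adjusted p = 0.0807). CYP4B1, a cytochrome of urothelium, stood at 0.29 and was called higher than with siRNA 2, where it read 302 and 314 (log2 difference 1.33, limma adjusted p = 0.0467). Ribosome biogenesis and MYC targets had 4 of 23 above 0 and a median of -0.11, with the polyamine enzyme ODC1 at 0.68 (adjusted p = 0.0934) against the trend of its list. Against scramble limma called 0 genes in these 3 lists. The unadjusted counts at p under 0.05 were 3 higher and 5 lower, 6 higher and 3 lower, and 2 higher and 2 lower. Over all genes 9.55% were higher and 6.65% lower.

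The YAP and TEAD pathway had 9 of 20 above 0 and a median of -0.043, with 4 higher and 2 lower at an unadjusted p under 0.05. Beside the call of PTPN14, WWTR1, the coactivator TAZ, stood at 0.67 and the dim TEAD2 at -1.57. Integrin and matrix genes had 12 of 16 above 0 and a median of 0.11, with 5 higher and 3 lower at an unadjusted p under 0.05. ITGB8, an integrin that activates TGF-beta, read 146 and 136 with scramble and 359.6 and 507 with siRNA 1 (log2 difference 1.60, SE 0.18, adjusted p = 0.0633), while FN1, fibronectin, stood at -0.66 and PARVA at 0.80. Receptor tyrosine kinases and their feedback genes had 11 of 17 above 0 and a median of 0.15, with 3 higher and 1 lower at an unadjusted p under 0.05, and beside the calls of MET and LRIG1 the receptors ERBB3 and FGFR2 stood at 0.52 and -0.52. NRF2 targets had 16 of 18 above 0 and a median of 0.12, with 5 higher and 0 lower at an unadjusted p under 0.05. In 12 of them (66.7%) both siRNA 1 arrays lay above both scramble arrays, against 26.7% of all genes. The ERK feedback list had 8 of 19 above 0 and a median of -0.037, with 1 higher and 4 lower at an unadjusted p under 0.05. Over all genes 9.55% were higher and 6.65% lower at that level.

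The p53 targets had 12 of 19 above 0 and a median of 0.067, with 3 higher and 1 lower at an unadjusted p under 0.05, with the cell cycle inhibitor CDKN1A at 0.34 and MDM2, the ligase of p53, at -0.34. Homologous recombination and damage genes had 7 of 19 above 0 and a median of -0.035, with 0 higher and 2 lower at an unadjusted p under 0.05, with the nuclease gene MRE11 lowest at -0.33. The BCL2 family had 8 of 14 above 0 and a median of 0.044, with 2 higher and 0 lower at an unadjusted p under 0.05, with the survival gene MCL1 highest at 0.55. The RNA interference machinery had 7 of 12 above 0 and a median of 0.089, with 1 higher and 0 lower at an unadjusted p under 0.05, with TNRC6C, a partner of Argonaute, highest at 0.77. Histone genes had 9 of 13 above 0 and a median of 0.11, with 2 higher and 2 lower at an unadjusted p under 0.05. Cholesterol genes had 10 of 18 above 0 and a median of 0.048, with 2 higher and 1 lower at an unadjusted p under 0.05. Hypoxia and glycolysis genes had 12 of 25 above 0 and a median of -0.014, with 4 higher and 3 lower at an unadjusted p under 0.05. Limma called 0 genes in these 7 lists. At an unadjusted p under 0.05 the shares over all genes were 9.55% higher and 6.65% lower. Values are those of the brightest probe sets, and for FGFR2, MCL1, MDM2, PARVA and TNRC6C at least 1 other probe set above the filter stood in the opposite direction.

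**Figure D5:**
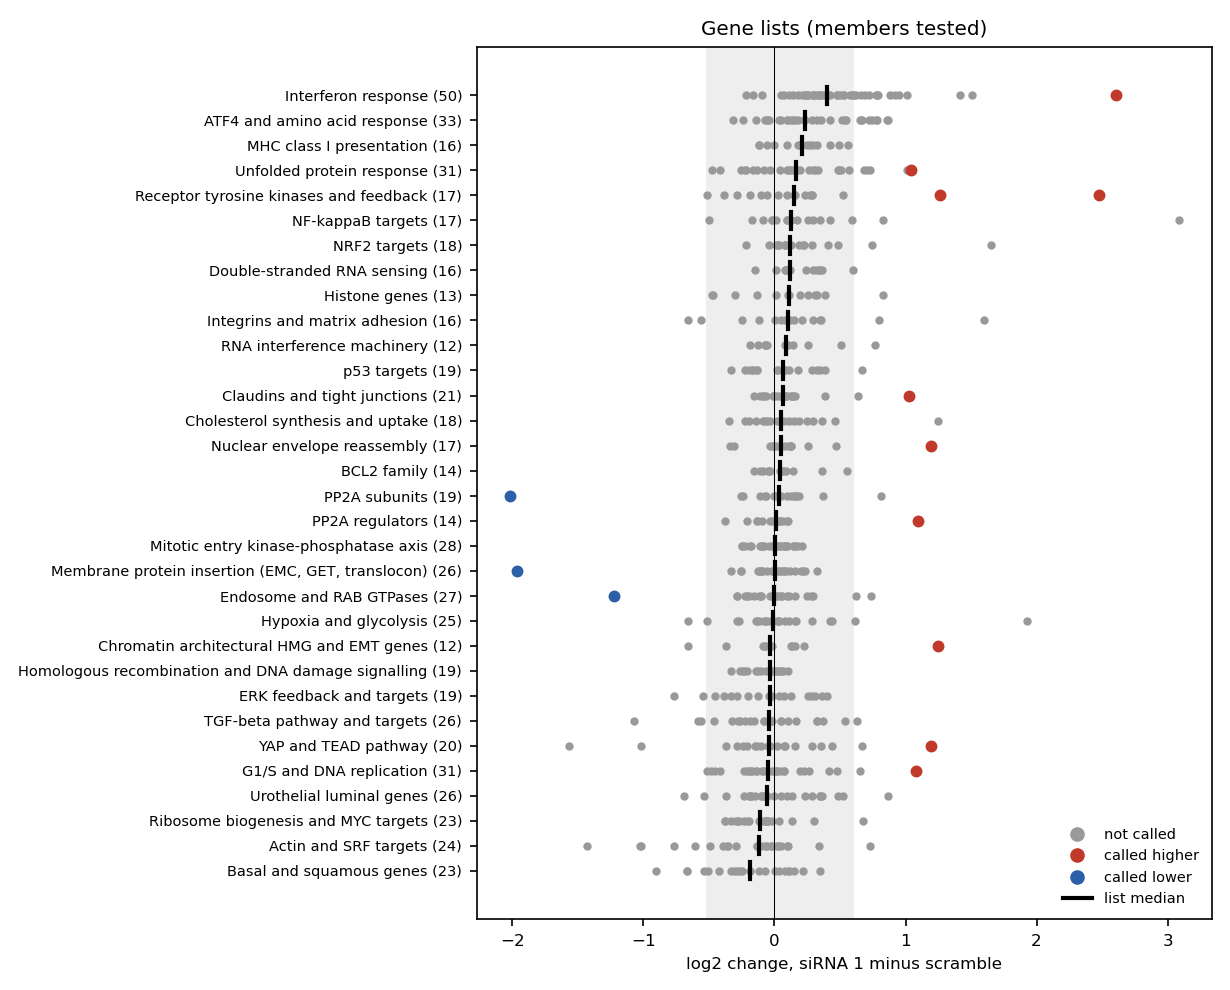
Log2 change with siRNA 1 against scramble (x axis) for each tested member of 32 gene lists (y axis, number tested in brackets), with black bars at list medians, red and blue for called genes and a grey band over the central 90% of all genes. Medians run from -0.18 for basal and squamous genes to 0.40 for interferon response genes.

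Some bright genes differed by as much as the called ones but were not called. Their SE pools the spread between the duplicates of all groups, siRNA 2 included. CHCHD3, a subunit of the mitochondrial contact site complex, read 3229 and 3421 with scramble and 1188 and 608 with siRNA 1 (log2 difference -1.97, SE 0.32, adjusted p = 0.0982). Its siRNA 1 arrays stood far apart from each other, and it read 3462 and 3313 with siRNA 2. ACSL4, which activates arachidonic acid, read 368 and 362 with scramble and 147 and 75.5 with siRNA 1 (log2 difference -1.78, SE 0.36, adjusted p = 0.142). RMND5A, part of the CTLH ubiquitin ligase, read 1672 and 1479.6 with scramble and 656 and 527 with siRNA 1 (log2 difference -1.42, SE 0.14, adjusted p = 0.0561). IFT57, an intraflagellar transport protein, read 2591 and 2404 with scramble and 1077 and 987 with siRNA 1 (log2 difference -1.27, SE 0.19, adjusted p = 0.0848). Its duplicates lay close together in these groups but further apart with siRNA 2, at 3564 and 2469. The phospholipid enzyme CHPT1 stood at -1.19, the fatty acid elongase ELOVL7 at -1.22, NUB1 at -1.24, CPEB4 at -1.09 (1 of its 3 other probe sets above the filter stood the other way, at 0.69), LINC03125 at -1.21 and EDN1, endothelin 1, at -1.28. Upward, CASTOR2, a gene of the mTORC1 pathway, read 114 and 154 with scramble and 425 and 371 with siRNA 1 (log2 difference 1.58, SE 0.20, adjusted p = 0.0780). The arrestin-domain gene ARRDC3 stood at 1.10, SDR16C5 at 1.24, TC2N at 1.51 and MINDY3, whose siRNA 1 arrays stood far apart, at 1.28. On other probe sets above the filter NUB1 stood from -0.42 to -0.24, IFT57 at -0.39 and MINDY3 at 0.14. Those of EDN1 stood at -1.06 and -0.030, that of TC2N at 0.70 and that of ACSL4 at -1.09. CHPT1 (-1.06 and -1.01) and RMND5A (-1.29) stayed nearer their brightest probe sets. With an intensity trend limma called 18 of the 20 uncalled genes chosen by size (10 lower and 8 higher, with CXCL10, XAF1, CCL5 and ITGB8 among the higher), and not CCL22 or MINDY3. Over all genes the trend called 1.37% higher and 0.974% lower. The 20 were chosen on the same arrays for large differences without overlap and for bright signal. That choice favours such a call, so it is no further support.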

How the data were processed

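RNA of RT-112 cells was hybridised to 6 Affymetrix HG-U133 Plus 2 arrays, 2 technical duplicates a group. The authors deposited linear signal intensity values of 54675 probe sets, made with Affymetrix Expression Console per the submitters' processing notes; each array has a trimmed mean (2% off each end) near 500.07, and the summary method is not given in the sources used here. No background correction or normalization was added. Of the probe sets 41091 carried 1 gene symbol in the platform table (41037 matched RefSeq), 1801 several and 11721 none, and the last 2 kinds are not named. The brightest probe set stood for a gene, and genes above the array median (50th percentile) on at least 2 arrays were tested. Signals entered limma 3.58.1 (R 4.3.3) as log2(signal + 1). The fit had 1 coefficient a group over all 6 arrays (3 residual degrees of freedom), empirical Bayes moderation and Benjamini-Hochberg adjustment over the 12735 genes. Sizes of change in dim genes depended on the settings. Over the other settings run with every array, ALPP ranged from 2.75 to 3.95, LRIG1 from 1.76 to 2.48 and ADGRG3 from 1.60 to 2.22 on the log2 scale. In simulated data of this comparison (12735 genes, 200 changed) the fit recovered 2.99% of 1.5-fold, 59.7% of 2-fold and 89.4% of 4-fold changes and called 4 unchanged genes. The simulated noise was normal, independent between arrays and set to the moderated spread of each gene. Those rates describe that setting and may not hold for the real arrays. Probe sets with several symbols or none gave 0 calls by limma among 5405 tested (528 at an unadjusted p under 0.05).

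Named were the targeted gene, the 15 largest called changes each way and the other called genes, the 10 largest uncalled each way among genes whose groups did not overlap and whose higher group mean was at least 4 times the array median, and the 5 largest differences or called members of 32 gene lists. Other list members given with values (such as ISG15, GBP1, HSPA5, ASNS, ERN1, CALD1 and CYP4B1) were picked with their values in view. The members and lists were chosen with earlier results of these data known. Letters A and B did not pair the arrays: the deviations of same-lettered arrays correlated at -0.03 to 0.04. The number of arrays limits the precision. Alternatives changed the normalization, pseudocount, filter, probe set rule, arrays, variance prior and replicate block.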

Additional observations from a re-analysis of the deposited data

Results flagged for a closer look

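The 10 genes listed here were called lower with siRNA 1 against scramble and also differed between siRNA 1 and siRNA 2 by a limma test of that difference, at adjusted p-values of 0.0418 and above, all below 0.05. The log2 differences, siRNA 1 minus siRNA 2, were -2.07 for CIB2, -2.03 for MMGT1, -1.48 for RAB21, -1.42 for SKAP2, -1.27 for CDC23, -1.12 for SLC26A2, -1.11 for APH1A, -1.10 for PLPBP, -1.07 for NEDD1 and -1.04 for SUMO3. In each both siRNA 1 arrays read below both siRNA 2 arrays, which the call rule favours, so it is no further support. CIB2 was below the array medians with siRNA 1. RAB21 read 821 and 779 with siRNA 1 and 2261 and 2202 with siRNA 2, SKAP2 1212 and 1177 and 3277 and 3115, PLPBP 533 and 594 and 1196 and 1214, and SUMO3 2864 and 2984 and 5965 and 6038. No cause of these differences was tested.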

How the results depend on the processing

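The calls depended on the settings, among them the normalization, the filter, the probe set rule and the estimate of spread. Against scramble, 50 genes were called (27 higher, 23 lower), 33 after quantile normalization (17 higher), 11 with arrays centred on their medians (5 higher, 6 lower), 280 with a filter at the 75th percentile (168 higher, 112 lower), 11 on plain _at probe sets (5 higher, 6 lower) and 299 with an intensity trend (175 higher, 124 lower). The count was 0 in either direction with no filter, with the mean of the probe sets, with the 4 arrays alone and with the replicate block, at 2065, 1371, 1925 and 1921 genes at an unadjusted p under 0.05 by limma. Against siRNA 2 the 27 calls (11 higher, 16 lower) became 12 after quantile normalization (6 higher, 6 lower), 0 with centred arrays, 0 with no filter, 0 with the mean of the probe sets, 323 at the 75th percentile (181 higher, 142 lower), 5 on plain _at probe sets (1 higher, 4 lower), 362 with the trend (207 higher, 155 lower) and 0 with the replicate block (1689, 2309, 1495 and 2235 at an unadjusted p under 0.05 where the count was 0). Leaving out any 1 array gave 0 to 0 calls in both contrasts and both directions (1461 to 1925 and 1599 to 2118 at an unadjusted p under 0.05).

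PPP2R2A stood at -2.02 but was not called with no filter (adjusted p = 0.156), with the 4 arrays alone (0.139) and with the replicate block (0.158), and stood at -1.42 with the mean of its probe sets (0.124). Without any 1 array it ranged from -2.14 to -1.90. CCND3 turned to -0.12 with the mean of its probe sets and HMGA2 to -0.011 on plain _at probe sets, where a dimmer probe set stands for the gene. The smaller or larger number of genes tested enters the filter counts, and the cause of the other differences was not tested. A pseudocount of 16 kept all 50 calls among 65. The letters A and B do not pair the arrays, so a call lost under the block is no sign of a weaker change. Between 21 and 24 of the list medians lay above 0 in each setting, 22 as reported. Dim signals limit the size of changes near background.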
